A study of Homo sapiens with 4 samples.

Results

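Described here are 10 genes through the c-MYC binding called at them, all of them genes of the synthesis and turnover of polyamines. They were taken by name, 10 of the 19663 nuclear protein-coding genes of the GENCODE version 44 annotation, and the rule sets no limit on a measured value. ODC1, AMD1, SRM and SMS make polyamines, OAZ1, OAZ2 and AZIN1 set the activity of the ODC1 enzyme, and SAT1, PAOX and SMOX break polyamines down or lead them out of the cell. Peaks were assigned to a gene by position, either with a summit at most 1 kb from where one of its protein-coding transcripts begins, its transcription start site or TSS (a promoter peak), or anywhere in the gene or within 10 kb of it.

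Binding had been measured by chromatin immunoprecipitation and sequencing (ChIP-seq), in which DNA held by a protein is pulled down with an antibody, sequenced, and searched for places where fragments pile up. The cells were MIA PaCa-2, an established human pancreatic ductal adenocarcinoma line, and each library came from cells kept for 8 h in 1 condition. A c-MYC antibody was used on cells given the solvent DMSO, the inhibitor AMG510 at 100 nM or the MEK inhibitor trametinib at 10 nM, and non-specific immunoglobulin (IgG) was used on DMSO-treated cells as the control pull-down. Each of these 4 groups held 1 library, so no difference between conditions was tested and no value has a replicate check. Intervals below on tags and on tag ratios cover counting error alone. Wilson intervals on shares treat the genes or peaks counted as random draws and hold no error of the libraries.

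The depth that entered peak calling lay between 22700000 and 24800000 tags, a tag being a mapped read. The lists held 9552 peaks for DMSO c-MYC, 10378 for AMG510, 5431 for trametinib and 2966 for IgG. Peaks with an enrichment over local background above 5-fold numbered 3355, 2279, 1691 and 821 in the same order. The longer AMG510 list thus held fewer such peaks than the DMSO list. The median peak had 10 to 13 tags at its summit, and where the background was no higher than across the genome, 7 or 8 piled-up tags were enough for a call. Both drug comparisons use the same DMSO library, so their values stand side by side and are not independent of each other.

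Polyamines (putrescine, spermidine and spermine) are small positively charged molecules that bind nucleic acids and are needed for growth. Ornithine decarboxylase, the product of ODC1, makes putrescine from ornithine, and spermidine and spermine synthase (SRM and SMS) extend it with aminopropyl groups that come from S-adenosylmethionine through the decarboxylase AMD1. c-MYC is a transcription factor that binds, with its partner MAX, to the DNA letters CACGTG (the E-box), and ODC1 is one of its textbook target genes.

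E-boxes lay inside promoter peaks of ODC1 and SRM only among the 10 genes, and those 5 sites are shown because they are where the binding described below and the recognition letters of c-MYC meet. Each line gives 30 bases of GRCh38 on the strand of the gene, 5′ to 3′, with the E-box in capitals. Both genes lie on the minus strand. The ODC1 sites are at chr2:10447990-10448019 and chr2:10448024-10448053, in intron 1 of the canonical transcript, and the former also touches the untranslated region of another transcript. The SRM sites are at chr1:11059460-11059489 and chr1:11059550-11059579, in intron 1 and touching the untranslated region of another transcript, and at chr1:11060200-11060229, upstream of the gene.

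ODC1 E-box, 320 bp downstream of the canonical TSS: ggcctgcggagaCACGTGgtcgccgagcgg
ODC1 E-box, 286 bp downstream: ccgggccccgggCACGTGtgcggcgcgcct
SRM E-box, 541 bp downstream: gccgttcctcgcCACGTGtcaccatcgctc
SRM E-box, 451 bp downstream: tgcgccccgctcCACGTGtcagccctcagg
SRM E-box, 194 bp upstream: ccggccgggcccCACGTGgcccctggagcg

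In DMSO-treated cells 6 of the 10 genes had a promoter peak for c-MYC: ODC1, AMD1, SRM, SMS, AZIN1 and SMOX. That is 60% (95% Wilson interval 31.3 to 83.2), beside 24.2% of all protein-coding genes in the same list. Under AMG510 and under trametinib 3 of the 10 genes had one, ODC1, AMD1 and AZIN1 in both lists, which is 30% (10.8 to 60.3) beside 15.3% of all genes under AMG510 and 11.8% under trametinib. The IgG list had none at the 10 genes (0%, 0 to 27.8), beside 0.559% of all genes. The interval of the 10 genes lies above the share of all genes in the DMSO list and includes it under trametinib and AMG510. The genes were taken by name for 1 pathway and not drawn at random, so this is a description and no test. With fold enrichment above 5 alone, the count was 3 of 10 (10.8 to 60.3) in DMSO, beside 12.1% of all genes at that limit. It was 3 of 10 under trametinib, beside 4.87%, and 1 of 10 under AMG510, beside 5.75%. At that limit the interval of DMSO includes the share of all genes and that of trametinib lies above it. The reading thus changes with the limit, and some values lie on it. SMOX in DMSO (5.00 when rounded) was left out and AZIN1 under trametinib (also 5.00) was kept. ODC1 under AMG510, at 4.97, was just below. None of the 4 genes without a DMSO promoter peak had one in a drug list, where 6.47% (AMG510) and 4.33% (trametinib) of all genes without a DMSO peak did, so a count of 0 says little.

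By role, all 4 synthesis genes, 1 of the 3 regulators of ODC1 and 1 of the 3 turnover genes had a DMSO promoter peak, beside 24.2% of all genes. Under each drug these counts were 2 of 4 synthesis genes, 1 of 3 regulators and 0 of 3 turnover genes. Beside them stand 15.3% of all genes under AMG510 and 11.8% under trametinib. With 3 or 4 genes in a role, these counts are too small to set the roles apart. With the wider rule, a peak in the gene or within 10 kb, the 10 genes gave 7 in DMSO, 4 under AMG510, 3 under trametinib and 0 with IgG, beside 38.9%, 33.8%, 22.9% and 7.89% of all protein-coding genes. The gene added by the wider rule was PAOX, whose nearby peaks lay at the starts of other genes.

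**Figure D1:**
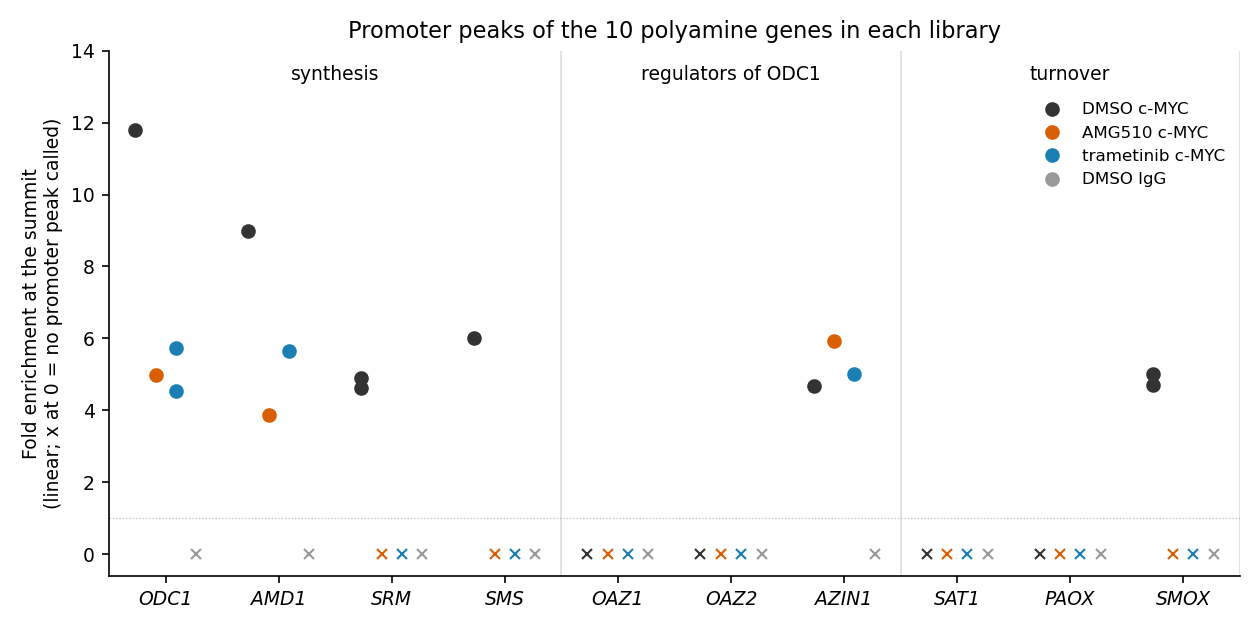
Fold enrichment at the summit (linear axis) of every promoter peak of the 10 polyamine genes, with 1 colour per library; a cross at 0 marks a gene and library with no promoter peak called, where the pileup is not known. ODC1 reached 11.8 and AMD1 9.0 in DMSO, above all of their drug values, while the AZIN1 values lay between 4.67 and 5.94 in the 3 c-MYC libraries.

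ODC1 (ENSG00000115758.14, chr2:10439968-10448327) carried the highest promoter peak of the group in DMSO. Fold enrichment, deposited as a ratio of summit pileup to local background within the library with 1 added to each, was 11.8 in DMSO, 4.97 under AMG510 and 5.72 under trametinib. The pileup behind these ratios was 59 tags in DMSO (95% exact Poisson interval 44.9 to 76.1), 17 under AMG510 (9.90 to 27.2) and 20 under trametinib (12.2 to 30.9). The DMSO interval does not overlap that of either drug library, and the drug intervals overlap each other. Both mates of a read pair can count as tags, so intervals on tags are too narrow here and below. By fold enrichment the DMSO peak stood above 99.5% of its list, the AMG510 peak above 77.5% and the trametinib peak above 86.5%, and by tags these ranks were 99.1%, 90.9% and 90.3%. So the site was called in all 3 c-MYC libraries, and its rank was lower in both drug lists by either measure, by less when ranked by tags.

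The ODC1 peak covered chr2:10447744-10448438 in DMSO, chr2:10447812-10448190 under AMG510 and chr2:10447715-10448200 under trametinib. Its summit lay 310, 323 and 304 bp downstream of the canonical TSS, in intron 1, and 3 to 9 bp from the start of another protein-coding transcript of the gene. The 3 summits were thus at nearly the same place, within 13 bp of the DMSO summit under AMG510 and 6 bp under trametinib. Both ODC1 E-boxes shown above, which start 34 bp apart, were inside all 3 peaks. The site at 320 bp was 10 bp from the DMSO summit, held the AMG510 summit (0 bp) and was 16 bp from the trametinib summit, and the site at 286 bp was 19, 32 and 13 bp away.

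Under trametinib ODC1 had a further, smaller promoter peak at chr2:10448366-10448534, upstream of the gene, with a summit 124 bp before the canonical TSS, a fold enrichment of 4.53 and 16 tags. It overlapped the edge of the broader DMSO peak and no AMG510 peak. It held no E-box, and 1 of 2 overlapping copies of CACGCG (counted on either strand, a variant that c-MYC also binds) lay inside it, the other crossing its edge. The start of ODC1-DT, a divergent long non-coding RNA, is within 1 kb of all 4 ODC1 summits, so the peaks cannot be given to ODC1 alone by position.

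The tags of the 10 kb around the summit, which set the local background here, were 230 in DMSO, 167 under AMG510 and 164 under trametinib, and that window contains the peak itself. Scaled to the number of tags, the pileup at ODC1 changed by −1.82 on the log2 scale under AMG510 relative to DMSO (−2.69 to −1.02, exact conditional interval) and by −1.61 under trametinib (−2.42 to −0.86). This scaling leaves out that MACS2 extended tags to 177 bp in DMSO, 157 bp under AMG510 and 163 bp under trametinib, and with the extension length included the log2 ratios were −1.65 (−2.52 to −0.85) and −1.49 (−2.30 to −0.74). On the fold enrichment scale they were −1.25 and −1.05.

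AMD1 (ENSG00000123505.19, chr6:110874770-110898879, plus strand), which supplies the aminopropyl donor, had the next highest DMSO peak of the group. Its fold enrichment was 9.0 in DMSO, 3.87 under AMG510 and 5.66 under trametinib. The tags at the summit were 44 (32.0 to 59.1), 16 (9.15 to 26.0) and 22 (13.8 to 33.3). The DMSO interval lay above that of AMG510 and overlapped that of trametinib slightly, and the drug values overlapped each other. As intervals on tags are too narrow, the gap between DMSO and AMG510 may not hold. By fold enrichment the AMG510 peak stood above 22.1% of its list, the DMSO peak above 97.6% and the trametinib peak above 85.7%, but by tags the AMG510 peak stood above 88.4%. Its low rank thus holds for fold enrichment alone.

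The AMD1 peaks were at chr6:110875310-110875828 in DMSO, chr6:110875390-110875768 under AMG510 and chr6:110875444-110875822 under trametinib, all in intron 1 of the canonical transcript. Their summits lay 670, 925 and 776 bp downstream of the canonical TSS, and a shorter protein-coding transcript starts 120, 135 and 14 bp from them. The summit thus moved by 255 bp between DMSO and AMG510, far more than at ODC1. No E-box lay in these peaks, and the DMSO peak held 2 copies of CACGCG on either strand, 60 and 16 bp from its summit. The log2 ratio of depth-scaled tags to DMSO was −1.48 under AMG510 (−2.40 to −0.63) and −1.05 under trametinib (−1.86 to −0.28), or −1.31 and −0.93 with the extension length included, and the log2 ratio of fold enrichment was −1.22 and −0.67.

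SRM (ENSG00000116649.10, chr1:11054584-11060020) had 2 promoter peaks in DMSO and none in either drug list. The intron 1 peak at chr1:11059355-11059635 reached 4.91-fold enrichment from 20 tags (12.2 to 30.9), and the peak at chr1:11060131-11060595, upstream, 4.62 from 19 tags (11.4 to 29.7). By fold enrichment these stood above 62.2% and 50.6% of the DMSO list, and by tags above 82.2% and 79.4%. The 3 SRM E-boxes shown above divide between them. The sites at 541 and 451 bp lay in the intronic peak, 8 and 98 bp from its summit, and the upstream site was 26 bp from the other summit.

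SMS (ENSG00000102172.16, chrX:21940709-21994837, plus strand) had a DMSO promoter peak at chrX:21940706-21941305 and none in either drug list. Its summit was 105 bp downstream of the canonical TSS, in the 5′ untranslated part of exon 1, with a fold enrichment of 6.02 and 21 tags (13.0 to 32.1), above 86.1% of the list. It held no E-box, and its 2 copies of CACGCG were 222 and 365 bp from the summit. A weak DMSO peak inside intron 4, at chrX:21972834-21973010, showed 3.56-fold enrichment from 9 tags (4.12 to 17.1).

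The absence of SRM and SMS from the drug lists can be set against what a call would have needed. At the background around the DMSO peaks, scaled to the depth and extension length of each drug library, 11 tags would have been called at either SRM site under either drug, and 9 tags at SMS under AMG510 or 10 under trametinib. At ODC1, AMD1 and AZIN1 the background assumed in this way was above that recorded under both drugs. At ODC1 it was 3.66 against 2.62 tags under AMG510, and at AMD1 3.6 against 3.39. The tags needed here and at SMOX may therefore be overstated. The DMSO pileups at SRM scaled to 17.1 to 19.0 tags in the drug libraries, with counting intervals whose lower ends were 10.3 to 11.6, at or about the 11 tags needed. At SMS they scaled to 18.9 (11.7 to 28.9) and 20.0 (12.4 to 30.5). The pileups actually reached there are below what the lists record and are not known.

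**Figure D2:**
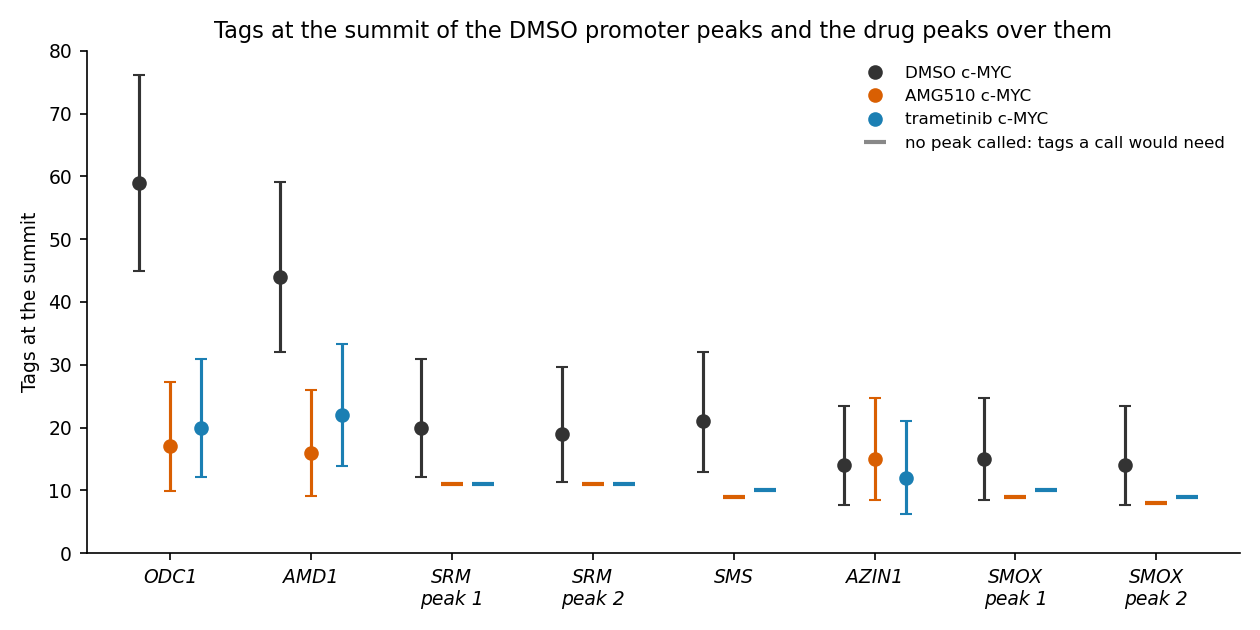
Tags at the summit of each DMSO promoter peak of the 6 bound polyamine genes and of the highest drug peak that overlaps it, with 95% exact Poisson intervals; a horizontal dash marks the tags that a call would have needed where no drug peak was called. At ODC1 59 DMSO tags stood against 17 and 20, at AZIN1 14 against 15 and 12, and at SRM, SMS and SMOX the DMSO pileups of 14 to 21 tags had no drug peak.

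AZIN1 (ENSG00000155096.15, minus strand), the antizyme inhibitor that keeps ODC1 from degradation, was the one regulator with a promoter peak. Its peaks were at chr8:102864404-102864716 in DMSO, chr8:102864445-102864820 under AMG510 and chr8:102864243-102864772 under trametinib, with summits 461, 531 and 558 bp upstream of the canonical TSS. Fold enrichment was 4.67, 5.94 and 5.00, and the tags were 14 (7.65 to 23.5), 15 (8.4 to 24.7) and 12 (6.20 to 21.0). All 3 intervals overlap. The log2 ratio of depth-scaled tags to DMSO was 0.08 under AMG510 (−1.07 to 1.24) and −0.27 under trametinib (−1.51 to 0.95). Both intervals hold 0. The AMG510 interval also holds changes of more than 2-fold either way, and the trametinib interval a fall of more than 2-fold. With the extension length included these ratios were 0.25 and −0.15. The starts of the protein-coding gene ENSG00000289653 and of the long non-coding RNA MAILR are also within 1 kb of these summits, and no copy of CACGTG or CACGCG lay in the peaks.

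The antizymes OAZ1 (ENSG00000104904.12, chr19:2269509-2273490) and OAZ2 (ENSG00000180304.14, chr15:64687573-64703281), which bind the ODC1 enzyme and send it to the proteasome, had no peak within 10 kb in any of the 4 lists. The same held for SAT1 (ENSG00000130066.17, chrX:23783173-23786210), the acetyltransferase that starts polyamine breakdown and export. At the genome-wide background, pileups under 7 or 8 tags would not have been called, so weaker binding at these 3 genes was not detectable at this depth.

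PAOX (ENSG00000148832.16, chr10:133379261-133391694), the oxidase of acetylated polyamines, had no promoter peak. The DMSO peak nearest to a PAOX start, at chr10:133373163-133373373, was 5946 bp from it and within 1 kb of the start of ECHS1, with a fold enrichment of 5.18 and 17 tags. The other, at chr10:133394178-133394498 downstream of PAOX, lay within 1 kb of the start of MTG1, with 6.13 and 20 tags, and had an AMG510 counterpart at chr10:133394147-133394343 with 5.32 and 14 tags. So no PAOX peak was closer to PAOX than to the start of another gene. Among the 10 genes, the promoter peak farthest from a protein-coding start was 536 bp away, at SMOX. Outside the 1 kb limit, the peak nearest to such a start was that upstream of PAOX, at 5946 bp.

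SMOX (ENSG00000088826.18, chr20:4120980-4187747, plus strand), the spermine oxidase, had 2 DMSO promoter peaks at separate starts and none in the drug lists. At chr20:4149178-4149368, in intron 1 with a summit 474 bp after the canonical TSS, the fold enrichment was 4.70 with 15 tags (8.4 to 24.7). At chr20:4172166-4172400 it was 5.00 with 14 tags (7.65 to 23.5), and this summit, 23418 bp after the canonical TSS, was near a shorter transcript, 536 bp from its start. By fold enrichment these stood above 55.4% and 64.8% of the DMSO list. A call at the DMSO background would have needed 9 and 8 tags under AMG510 and 10 and 9 under trametinib, against DMSO pileups that scaled to 12.6 to 14.3 tags there, with counting intervals that reach below those needs (lower ends 6.89 to 7.99). The peak at the shorter transcript held 1 copy of CACGCG on either strand, 63 bp from its summit, and neither held an E-box.

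**Figure D3:**
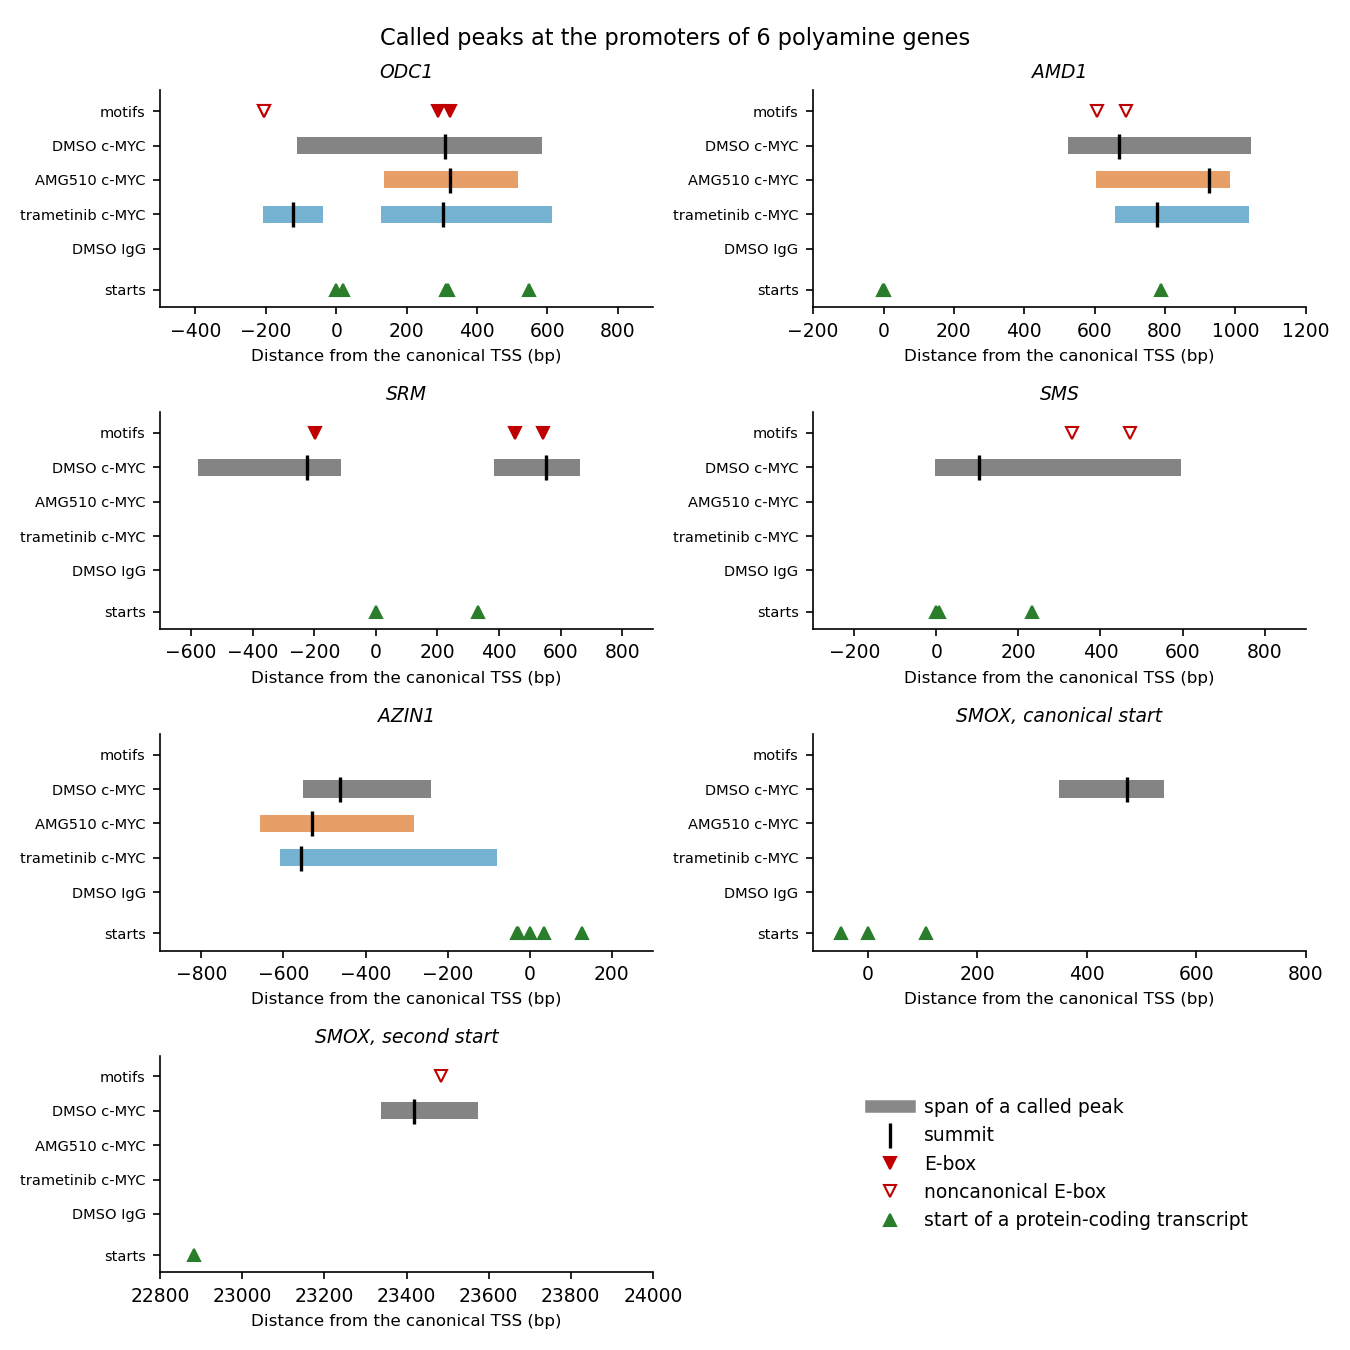
Called peaks at the promoters of the 6 bound polyamine genes, drawn to scale against the distance from the canonical TSS in bp on the strand of the gene (SMOX has 1 panel for each start); bars are peak spans, vertical ticks summits, filled triangles E-boxes, open triangles copies of CACGCG on either strand and green triangles starts of protein-coding transcripts. The E-box pair of ODC1 lies under all 3 c-MYC summits, and no IgG peak appears in any panel.

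Of the 6 genes with a DMSO promoter peak, 3 also had one under AMG510, 3 under trametinib and 3 under both, ODC1, AMD1 and AZIN1 each time. Among all 4761 protein-coding genes with a DMSO promoter peak, 43% had one under AMG510, 35.2% under trametinib and 23.1% under both. With 6 genes these shares cannot be told apart from the background. Higher DMSO peaks were called again more often: of all DMSO promoter peaks in the top decile of the list by fold enrichment, which includes ODC1 and AMD1, 70.6% were overlapped by an AMG510 peak and 65.8% by a trametinib peak. In the decile below, with SMS, the shares were 44.9% and 35.6%. In the deciles that hold SRM, SMOX and AZIN1 they were 25.3% to 25.5% and 18.2% to 18.7%, so AZIN1 was called again from a level at which most peaks were not.

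The falls at ODC1 and AMD1 can be set beside those of other genes called in both lists. Over all genes with a promoter peak in both lists, the median log2 ratio of fold enrichment to DMSO was −0.20 under AMG510 (quartiles −0.47 and 0.05, 2045 genes) and −0.23 under trametinib (−0.48 and 0.03, 1678 genes). For those with a DMSO fold enrichment above 8, a limit set after the values were seen, the medians were −0.59 (290 genes) and −0.57 (275 genes). Under AMG510, 14 of these 290 genes had a lower ratio than ODC1 (−1.25) and 19 a lower one than AMD1 (−1.22). Under trametinib, 39 of 275 were lower than ODC1 (−1.05) and 121 lower than AMD1 (−0.67). Both genes thus lay near the low end of that group under AMG510, and AMD1 lay near its middle under trametinib. These are places among genes called in both lists. Genes whose DMSO promoter peak was not called under the drug have no ratio and are left out. The limit of 8 also takes in DMSO peaks lower than that of ODC1 (11.8).

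The E-box stood within 100 bp of the summit in 3 of the 8 DMSO promoter peaks of the 10 genes (the ODC1 peak and both SRM peaks), beside 16.9% of all DMSO promoter peaks (15.9 to 18.0). Under AMG510 it did so in 1 of 3 and under trametinib in 1 of 4, the main ODC1 peak each time, beside 14.4% and 17.3%. CACGCG, searched on both strands (as CGCGTG on the other) and able to overlap itself but not to be an E-box, was within 100 bp of the summit in 2 of 8, 0 of 3 and 2 of 4 peaks, beside 23.3%, 21.1% and 22.2%. Among IgG promoter peaks, each motif was found in 4.59% of 109. In RefSeq promoters of GRCh38.p14 (250 bases before to 50 after a start), 8.34% of 22199 held CACGTG and 14.3% held CACGCG on either strand. Of the 10 genes 7 were matched there, with 10 promoters, of which 2 held CACGTG (SRM and ODC1) and 1 held CACGCG (ODC1).

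The 5 genes outside the list named next had the pattern most like that of ODC1, by the Euclidean distance between log2 fold enrichments of the strongest promoter peak in the 3 c-MYC libraries, over 1097 genes with a promoter peak in all 3. METTL1 and EEF1AKMT3, which share 1 set of peaks, were nearest (distance 0.0871), with fold enrichments of 11.9 in DMSO, 4.91 under AMG510 and 5.39 under trametinib. NUP153 (0.165) had 10.9, 5.24 and 6.04. SEH1L (0.166) had 11.1, 4.73 and 5.26, and ZFP36L2 (0.211) had 11.5, 5.63 and 5.32. The presence pattern alone, a promoter peak in all 3 c-MYC lists and not with IgG, was shared by 1090 genes.

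Around the core pathway stand genes that feed it, use its products or carry polyamines and their precursors, and 25 of these were listed. Of them 8 had a promoter peak in DMSO (32%, 17.2 to 51.6), beside 24.2% of all genes. Under AMG510 there were 9 (36%, 20.2 to 55.5), beside 15.3%, and under trametinib 6 (24%, 11.5 to 43.4), beside 11.8%. With IgG there were 0, beside 0.559%. The interval includes the share of all genes in DMSO and trametinib and lies above it in AMG510. These genes too were named and not drawn at random, so no test was made. A promoter peak in all 3 c-MYC lists was found at 6 of the 25, beside 1100 of the 19663 protein-coding genes. Counts by role in DMSO were 1 of 4 for hypusination (EIF5A), 2 of 3 for S-adenosylmethionine supply and turnover (MAT2A and AHCY), 2 of 5 for methionine salvage (APIP and ADI1), 1 of 4 for ornithine supply (ALDH18A1), 2 of 6 for transport (ATP13A3 and SLC7A1) and 0 of 3 for paralogs of the core genes.

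EIF5A, the translation factor that carries hypusine made from spermidine, had a higher DMSO peak than ODC1. Its fold enrichment was 12.2 in DMSO, 9.77 under AMG510 and 8.96 under trametinib, from 81, 39 and 42 tags. Its log2 ratios of fold enrichment to DMSO, −0.32 and −0.45, were smaller in size than those of ODC1. On depth-scaled tags they were −1.07 (−1.66 to −0.51) and −0.99 (−1.57 to −0.44), with intervals that overlap those of ODC1. MAT2A, which makes S-adenosylmethionine, had 7.39, 4.41 and 4.44, and AHCY, which clears S-adenosylhomocysteine, had 8.13, 4.11 and 5.62. SLC7A1, a carrier of arginine and ornithine, had 7.63, 6.96 and 4.96. All 4 genes were thus called in the 3 c-MYC libraries with their highest value in DMSO.

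ADI1 and ATP13A3 were also called in all 3, with fold enrichments of 4.86, 6.57 and 4.78 for ADI1. For ATP13A3, a polyamine transporter, they were 5.43, 5.82 and 5.18, the trametinib peak lying at another start 25035 bp from the DMSO peak. APIP, whose start is shared with PDHX (5.52), and ALDH18A1, which makes a precursor of ornithine (6.04), had a peak in DMSO only. EIF5A2 (4.47), MAT2B (3.38) and SLC3A2 (6.01) had one under AMG510 only. The remaining 14 genes had none: OAZ3, AZIN2, SAT2, DHPS, DOHH, MTAP, MRI1, ENOPH1, ARG1, ARG2, OAT, ATP13A2, SLC18B1 and SLC22A3.

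**Figure D4:**
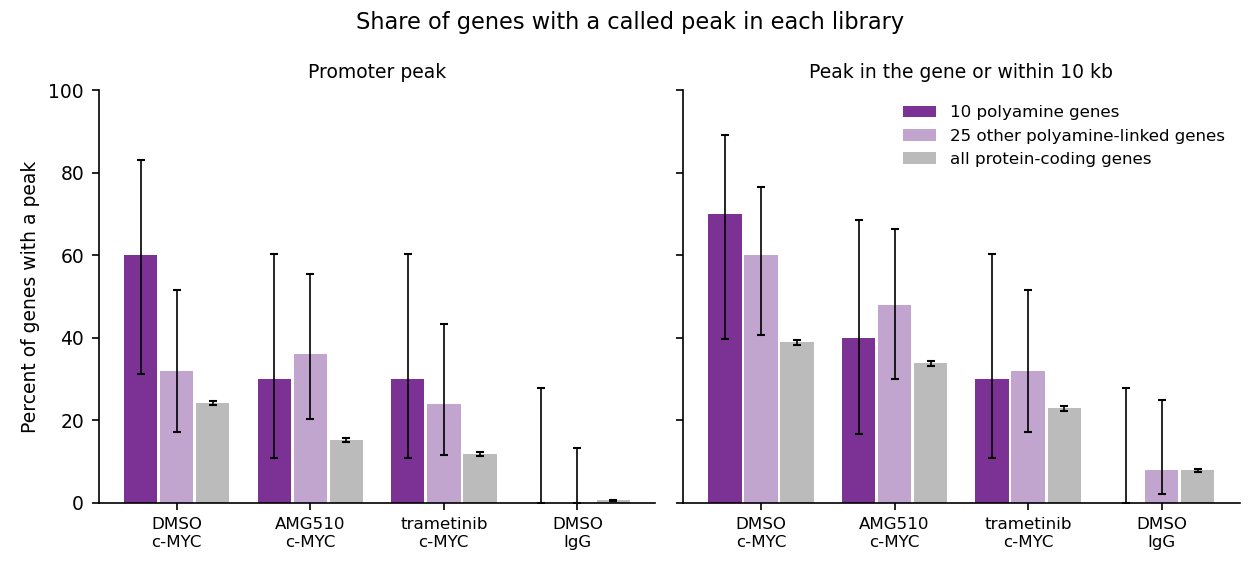
Percent of the 10 polyamine genes, of the 25 linked genes and of all 19663 protein-coding genes with a promoter peak (left) or with a peak in the gene or within 10 kb (right) in each list; error bars are 95% Wilson intervals. The share of the 10 genes with a promoter peak was 60% in DMSO and 30% under each drug, beside 24.2%, 15.3% and 11.8% of all genes.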

How the data were processed

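According to the methods and the labels, the authors used Trimmomatic 0.39 to trim read pairs and BWA 0.7.17 to place them on GRCh38, kept mapping qualities of 20 or more (SAMtools 1.9), removed duplicates with Picard, and called peaks in each library with MACS2 2.2.7.1 at default settings (q = 0.05), then dropped peaks on the ENCODE exclusion list. No control library is named for the calling. The deposited columns are the peak's start, end and summit, the score (−log10 q times 10), the fold enrichment (a ratio to the local background), and for the summit −log10 p-value and, beside it, −log10 q-value, as MACS2 gave them to the authors.

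Fold enrichment and −log10 p-value were solved for a whole number of tags and a background, which succeeded for 100% of peaks (relative tolerance 1e-04). The genome-wide background, the shortest peak width (143 to 177 bp) and a genome of 2700000000 bp gave the depth. Because both mates of a pair can count as tags, intervals on tags are too narrow. Promoter peaks were set with GENCODE version 44, with coordinates 1-based. Overlap meant at least 1 bp, and a drug value paired with DMSO was that of the gene's strongest promoter peak. Shares have Wilson intervals and tag ratios exact conditional (Clopper-Pearson) intervals at 95%. No test between conditions was possible with 1 library per group. The procedures were tested on simulated data, with Python 3.11.15, pandas 2.3.3, numpy 2.4.6, scipy 1.17.1 and matplotlib 3.10.9.

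All 10 genes, and each linked gene with a promoter peak, are named, and sequences are shown for promoter peaks with CACGTG. The genes, lists and rules were chosen with earlier results of these data known. The alternatives tried were other TSS distances and sets, stricter fold enrichment and score limits, other overlap rules, other scalings (1, with the extension length, added after seeing the data) and an added motif.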

Additional observations from a re-analysis of the deposited data

Results flagged for a closer look

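ADI1, an enzyme of methionine salvage, and ATP13A3, a polyamine transporter, gave ratios of fold enrichment to DMSO that pointed in opposite directions under the 2 drugs. The log2 ratio of ADI1 was 0.44 under AMG510 and −0.02 under trametinib, and that of ATP13A3 was 0.10 and −0.07. With 1 library per group the difference between the drugs was not tested. On the scale of depth-scaled tags the ratios were 0.49 and 0.15 for ADI1, the same direction under both drugs, and 0.05 and −0.46 for ATP13A3. Their counting intervals hold 0 for both genes under both drugs, at −0.56 to 1.59 and −0.98 to 1.29 for ADI1 and −0.90 to 1.01 and −1.53 to 0.58 for ATP13A3. The trametinib peak of ATP13A3 lay 25035 bp from the DMSO peak, at another start, so its ratio compares separate sites.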

How the results depend on the processing

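Of 67 alternative counts of genes or peaks, 54 stayed within 1.5 times the reported count. Of 15 alternative values for ODC1 alone 7 left the interval set around the reported value, all of them ranks within a list, and none reversed. For ranks this was the Wilson interval of the share of the list below the peak. For ratios of fold enrichment, which have no interval of their own, it had the width of the tag ratio interval. Both are rough yardsticks. Ranked among promoter peaks, by score or by tags, ODC1 stood above 64.3% to 90.9% of the AMG510 list and 80.1% to 90.3% of the trametinib list, against 99.1% to 99.4% in DMSO. With fold enrichment above 5, promoter peaks were left at 3 of the 10 genes in DMSO, 1 under AMG510 and 3 under trametinib. So DMSO and trametinib no longer differed in count, and none of the DMSO genes had one under AMG510 (0). These counts depend in part on values at the limit: SMOX in DMSO (5.00, left out), AZIN1 under trametinib (5.00, kept) and ODC1 under AMG510 (4.97, left out). The counts within 10 kb were 4 in DMSO and 2 under AMG510. With a score above 60, promoter peaks, peaks within 10 kb and DMSO genes called again were all 0 under AMG510, while 4 genes in DMSO and 2 under trametinib had a promoter peak. The shares of all genes were 12.1%, 5.75% and 4.87% at the former limit and 9.81%, 2.98% and 2.93% at the latter, in the order DMSO, AMG510 and trametinib. Within 50 kb the counts were 8 in DMSO, 8 under AMG510, 5 under trametinib and 3 with IgG, beside 58.5%, 55%, 39.4% and 15.5% of all genes, so the excess of DMSO over AMG510 within 10 kb was not seen. Counting CACGCG beside CACGTG gave a motif in 5 of 8 DMSO and 3 of 4 trametinib promoter peaks, beside 37% and 35.9% of all promoter peaks. Adding the extension length to the scaling of tags, chosen after seeing the data, kept the sign of the ODC1 ratios (−1.65 and −1.49). No paired analysis was possible because only 1 library stood for each group, and no replicate could be left out. Depth limits absent calls: a pileup under 7 or 8 tags is not recorded, and values below it are not known. The score depends on the whole library, so 1 limit does not mark the same enrichment in each list.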
